A study of Drosophila melanogaster with 57 samples.

Results

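The CPR family holds the largest group of insect cuticle proteins, which carry the Rebers and Riddiford consensus, a stretch of amino acids that binds chitin. The genes were taken as every gene of the deposited count tables whose FlyBase symbol begins with Cpr and a digit, and 70 of the 17559 listed genes met this rule. All 70 were matched to a position in the fly annotation (Ensembl, genome build dm6). They lie on chromosome arms 2L (5 genes), 2R (21), 3L (35) and 3R (5) and on chromosome X (4).

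Insect cuticle is a composite of chitin fibres and proteins that the epidermis secretes outwards. CPR proteins bind the fibres through their consensus, and which members are laid down differs between larval, pupal and adult cuticle and between soft and hard regions. Chitin itself is made by a membrane synthase, is trimmed by deacetylases and chitinases, and the finished adult cuticle is hardened and coloured by tanning enzymes that use dopamine. Moulting is over when the adult emerges, although some cuticle is still added afterwards. Some CPR proteins serve elsewhere: Cpr72Ec and Cpr66D are constituents of the corneal lens of the compound eye, next to the lens protein Crys.

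RNA was sequenced from Drosophila melanogaster adults of 5 days that were kept at 23 °C with 20 flies per vial. The control was stock 58492, which carries the alleles y1, w1118 and DNAlig4 169 together with the transgene M{Act5C-Cas9.P.RFP-}ZH-2A, and from which all deletion strains were made by CRISPR/Cas9 with an mCherry reporter in place of the deleted gene. By the labels MST-/- lacks CG12279 (mercaptopyruvate sulfurtransferase), CSE-/- lacks Cth (cystathionine gamma-lyase), and CBS-/-(5) and CBS-/-(8) are 2 transformants that lack Cbs (cystathionine beta-synthase). These are the genes of the transsulfuration pathway and of H2S production. DD1 and DD2 lack both Cbs and Cth. They came from crosses of CBS-/-(5) and of CBS-/-(8) with 1 CSE-/- transformant, so each strain is 1 line. For CSE-/- and MST-/-, adults grown from injected embryos were outcrossed to a laboratory yw strain. The double deletions were bred through further crosses with balancer strains. Comparisons between strains can thus carry a difference of genetic background, and its part was not tested. The Cas9 transgene of the stock is driven by the ubiquitous Act5C promoter and was present in the stock that gave the control and the deletions. Whole bodies of both sexes were sequenced for these 7 strains, thoraxes of both sexes for the control and CBS-/-(5), and whole males for a strain labelled DD2yw, a backcross of DD2 on yw. Each of the 19 groups had 3 libraries, and no source says that these came from separate cultures, so that p-values measure the spread between libraries, which may be technical.

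The labels were checked before the CPR genes were read. Cbs stood between 199 and 204 CPM (counts of a gene scaled to the library total) in control females and between 0.689 and 1.36 CPM in females of the 4 strains that lack it. In the libraries labelled DD2yw it stood at 34.4 and 33.3 CPM, and Cth at 45.4 and 32.7 CPM, against 0.0772 to 0.462 CPM and 3.55 to 3.85 CPM in DD2 males, which goes against a deletion of both genes. The third library labelled DD2yw held 7321 counts and was left out of all means and tests, while the others held 9705034 to 31616200 counts on genes. Replicate 1 of the control female thorax stood apart, with 37.9% of its counts on ribosomal RNA genes against 0.65% to 13.4% in the other thorax libraries. The summed level of 8 eye genes was 5278 CPM in control female thoraxes and 10690 CPM in control male thoraxes, above the 1057 and 4835 CPM of whole bodies, so that the libraries labelled thorax also held eye RNA. In whole males the share of female RNA, estimated from yolk and eggshell genes, was 18.6%, 62.2% and 1.97% in the CBS-/-(5) libraries, 42.8%, 24.6% and 1.21% in CBS-/-(8), 18.3% to 36% in CSE-/-, 5.95% to 14.1% in the control, and at most 1.4% in the others. This share rests on those genes alone. Ovary germline genes summed to 403.5 to 1122 CPM in CBS-/-(5) males, 1876 to 2822 CPM in CBS-/-(5) females and 803.1 to 1001 CPM in control males. Between these male groups they did not follow the share, and whether it holds for other female RNA was not tested. Cth stood at 15.4, 20.4 and 26.5 CPM in replicates 1, 2 and 3 of the males labelled CSE-/-, whose shares were 18.3%, 25.3% and 36%. It stood at 58.1 to 71.4 CPM in control males and at 7.24 to 7.78 CPM in CSE-/- females. Every library of the males labelled CSE-/- thus lay above every library of CSE-/- females. The part of female RNA in this level, and whether it came from females with Cth intact, was not tested. Of the females, 1 DD1 library held 88.8 CPM of male accessory gland genes, against at most 0.571 CPM in the other strains.

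Few CPR genes were expressed in these adults. A group mean of at least 1 CPM was reached by 31 of the 70 genes in at least 1 of the 19 groups and by 10 genes in all 19 groups, and 25 genes reached 5 CPM in some group. Of the 39 genes that stayed below 1 CPM, 11 had 10 counts or fewer over all libraries. Cpr57A had 0 counts, and all of its exon bases are shared with Obp57d. Just above the limit, Cpr49Af reached 1.04 CPM in control male thoraxes, and just below it Cpr49Ac reached 0.935 CPM in DD2 males. Only 38 genes had enough counts to be tested in any comparison, and the other 32 are described by their level alone.

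The level was carried by a few genes. Over the 18 groups other than DD2yw, the mean was 131 CPM for Cpr65Au, 122 CPM for Cpr49Ab, 68.1 CPM for Cpr49Ae, 49.6 CPM for Cpr67B and 20.2 CPM for Cpr72Ec, followed by Cpr47Ef (17.4 CPM), Cpr62Bb (12.7 CPM), Cpr73D (11.4 CPM), Cpr51A (6.22 CPM) and Cpr47Ee (6.19 CPM). Per kilobase of exon the order of the first 4 was kept, at 248, 143, 57.4 and 49.1 CPM per kb, but Cpr73D stood behind Cpr51A (3.75 against 9.55 CPM per kb). The 5 highest genes of a group made up 73.5% to 88.3% of its summed CPR level. Cpr65Au lies opposite the antisense gene asRNA:CR46005 over 93.3% of its exon bases, and since the strand setting of the counting is not given in the sources used here, its reads cannot be told apart from those of its partner. Cpr65Ax1 and Cpr65Ax2, and Cpr67Fa1 and Cpr67Fa2, are near-identical copies whose reads could be split, and all 4 stayed below 1 CPM.

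**Figure D1:**
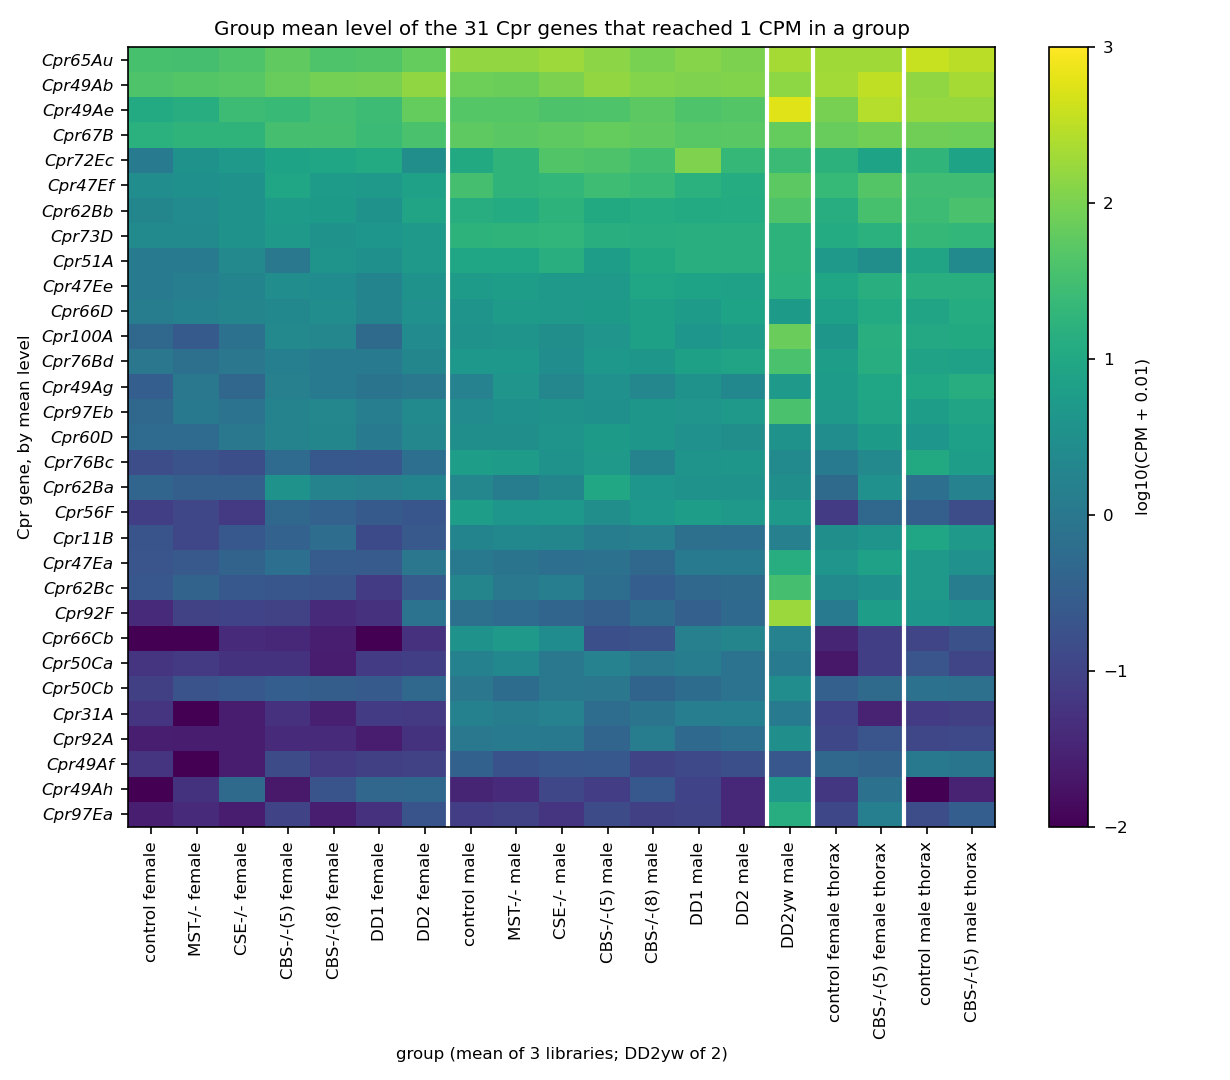
Group mean level of the 31 CPR genes that reached 1 CPM, 1 row per gene ordered by mean level and 1 column per group, coloured by log10(CPM + 0.01). The 4 rows at the top (Cpr65Au, Cpr49Ab, Cpr49Ae and Cpr67B) are high in every column, and the lower rows are darkest in whole females and, for Cpr92F, brightest in the libraries labelled DD2yw (173.5 CPM).

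Genes that lie side by side differed widely. The symbols place 49 genes in 12 bands with at least 2 members, of which 19 reached 1 CPM, and 21 genes alone in a band, of which 12 did. In band 49A of arm 2R, 8 genes lie within 38.6 kb, and 5 reached 1 CPM: Cpr49Ab (12378440 to 12379396, plus strand) stood at 122 CPM, whereas its neighbour Cpr49Ad gave 2 counts over all libraries. In band 65A of 3L, 7 genes lie within 30.4 kb, and only Cpr65Au (6131242 to 6132109, minus strand) reached 1 CPM. All 3 genes of band 62B reached it, as did 3 of 7 in band 47E, 2 of 4 in 76B, and none in bands 64A, 65E, 67F and 78C.

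The summed level of the 70 genes was 135.9, 127.5 and 103.3 CPM in the control female libraries and between 457.7 and 508.2 CPM in control males, and the ranges of the sexes did not overlap. Among whole females of the other strains, MST-/- had a mean of 132.1 CPM and CSE-/- of 165.2 CPM, whereas it was 238.1 CPM for CBS-/-(5), 243.9 CPM for CBS-/-(8), 233.5 CPM for DD1 and 368.8 CPM for DD2. In CBS-/-(5) and DD2 females the libraries disagreed, with 161.6 to 372.2 CPM and 203.6 to 519.3 CPM. Whole males of the 7 strains had means between 450.8 and 561.5 CPM. Thoraxes held 678 CPM in control females, with replicate 1 at 141.5 CPM, 1113 CPM in CBS-/-(5) females, 988.2 CPM in control males and 947.5 CPM in CBS-/-(5) males.

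**Figure D2:**
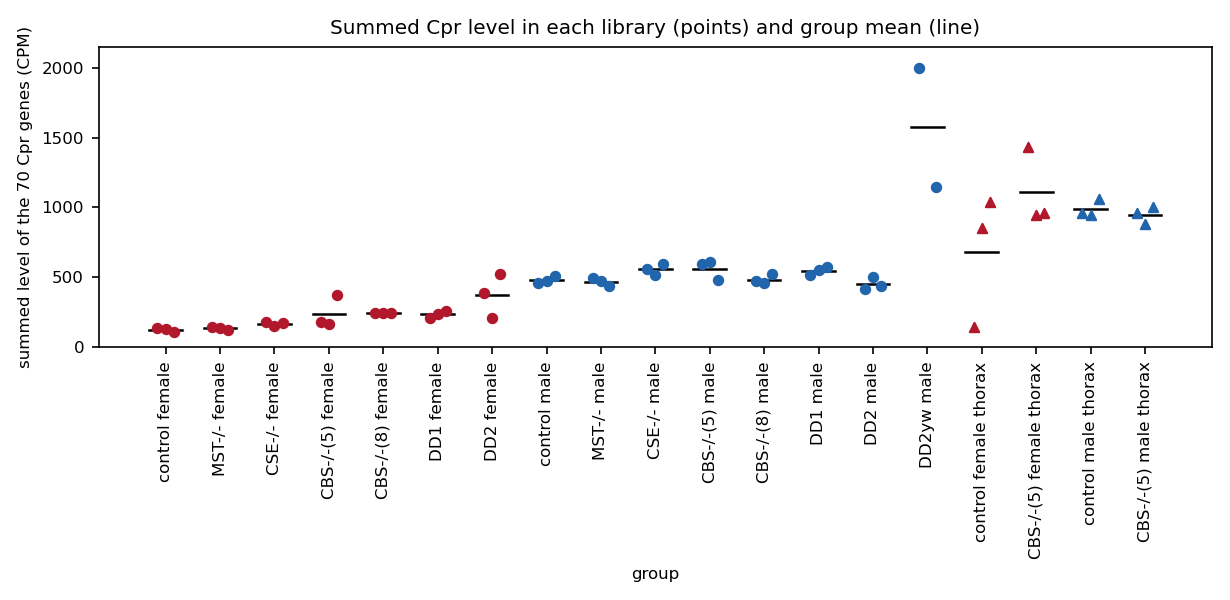
Summed level of the 70 CPR genes in CPM (linear axis from 0) for each library used, by group, with circles for whole bodies, triangles for thoraxes, red for females and blue for males, and a line at each group mean. The control male libraries lie between 457.7 and 508.2 CPM and the control female libraries between 103.3 and 135.9 CPM, the libraries labelled DD2yw stand at 1148 and 2001 CPM, the CBS-/-(5) female thoraxes reach 1434 CPM, and 1 control female thorax library lies at 141.5 CPM.

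Between the sexes of the control strain, 33 of 35 CPR genes tested were lower in whole females and 0 were higher, by edgeR's quasi-likelihood test with Benjamini-Hochberg adjustment over all genes, where 53.4% of all genes were lower in females and 90.2% were called in either direction. The median log2 fold change was -2.54 for CPR genes (-2.53 with genes at 0 in females set at their bound) and -0.86 for all genes tested. Only 24 CPR genes passed the filter on low counts in the fit of whole females alone, and a gene that passed only through the males had to be lower in females, so the count and the median are a description. Levels are scaled to the total of the library, whereas fold changes come from the fit with TMM scaling (trimmed mean of M-values). TMM was also computed only on genes at least as high in thorax as in whole body in the controls of both sexes. This moved the median of all genes to 0.64, and 23 CPR genes were lower and 1 was higher. Such genes were chosen partly on the same control whole-body libraries and include CPR genes, so the loss of calls could be in part built in. In bulk samples, fewer cells of a type and less RNA per cell cannot be told apart, and whole females carry ovaries that males lack: the summed level of 8 ovary germline genes was 3025 CPM in control females and 909.4 CPM in control males.

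The contrast was steepest for genes at low level. Cpr66Cb gave 58, 42 and 41 counts in the control male libraries (4.85, 3.13 and 2.79 CPM) and 0 counts in all 3 control female libraries, which makes it at least 25.4-fold higher in males against 3 counts per library. Cpr56F stood at 7.77, 5.06 and 5.31 CPM in control males and at 0.0481, 0.131 and 0.0501 CPM in control females, with no overlap (log2 fold change -6.04, SE 0.46, adjusted p = 2.4e-13, edgeR). Cpr76Bc was at 6.77, 6.48 and 4.76 CPM in males and at most at 0.200 CPM in females (log2 fold change -5.22, SE 0.37, edgeR adjusted p = 5.5e-14). Cpr92A had 40 counts in control males and 1 in control females, a ratio of 63.5 with a counting interval of 10.8 to 2568.

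Genes at high level differed less between the sexes. Cpr65Au fell from 150.3, 161.2 and 149.7 CPM in males to 35.2, 37.2 and 33.3 CPM in females (log2 fold change -2.01, SE 0.23, edgeR adjusted p = 1.2e-09). Cpr67B was lower by 1.74 on the log2 scale, and Cpr49Ae had a log2 fold change of -1.9562. The smallest difference was that of Cpr49Ab, at 53.2, 39.6 and 34.9 CPM in females and 61.7, 69.7 and 105.0 CPM in males (log2 fold change -0.77, SE 0.27, adjusted p = 0.008). Its call was lost without control male replicate 3 (-0.55, adjusted p = 0.082), and with the scaling on thorax genes it turned to 0.74 (adjusted p = 0.0062), while Cpr67B and Cpr49Ae then stood at -0.23 and -0.44 and were not called.

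In control thoraxes the sexes were much closer. Of 25 CPR genes tested, 1 was lower in females and 0 higher, where 2.29% of all genes were called, 0.771% lower. This was Cpr76Bc, at 0.443, 1.88 and 1.23 CPM in female thoraxes and 13.1, 11.9 and 7.25 CPM in male thoraxes, without overlap (log2 fold change -2.57, SE 0.27, edgeR adjusted p = 0.0016). With only the 6 control thorax libraries in the fit no CPR gene was called, and without control female thorax replicate 3 there were 3.

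Against the whole body, the libraries labelled thorax, which also held eye RNA, were rich in CPR RNA. In control females 24 of 27 CPR genes tested were higher in thorax and 0 lower (72.3% of all genes called, 36.5% higher), with a median log2 fold change of 3.81 (3.67 without 1 gene at or under the floor of 3 counts per library in both groups) against 0.10 for all genes. In control males 20 were higher and 4 lower of 29 (57% of all genes called, 26.5% higher and 30.5% lower), with a median of 1.47 against -0.01. A gene that passed the filter on low counts only through the thorax libraries had to be higher there, so the counts and medians are a description. Low means in whole control females were those of Cpr49Ag (0.299 CPM), Cpr11B (0.191 CPM), Cpr47Ea (0.203 CPM) and Cpr92F (0.0321 CPM). These comparisons share their whole-body control libraries with those between strains. In females Cpr49Ab, Cpr67B, Cpr51A and Cpr92F were among the called genes whose libraries overlapped between thorax and whole body. The summed level of ovary germline genes was 67.4 CPM in female thoraxes against 3025 CPM in whole females. That of 8 eye genes was 5278 against 1057 CPM in females and 10690 against 4835 CPM in males. The lens gene Cpr72Ec was among the genes higher in thorax, with log2 fold changes of 4.70 in females and 1.47 in males. The part of eye tissue in the CPR result was not tested.

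Cpr49Ag, Cpr11B and Cpr47Ea were among the largest rises in both sexes. Cpr49Ag stood at 1.55, 8.59 and 7.50 CPM in control female thoraxes against 0.385, 0.262 and 0.251 CPM in whole females, and its lowest thorax library was replicate 1, but the groups did not overlap (log2 fold change 5.12, SE 0.51, edgeR adjusted p = 1.5e-05). In males it was 9.04, 9.22 and 11.2 CPM against 1.67, 1.71 and 1.43 CPM (3.29, SE 0.40, adjusted p = 7.6e-05). Cpr11B, the only X-linked member that reached 1 CPM, rose from 1.92, 1.71 and 1.84 CPM in whole males to 11.2, 9.22 and 7.33 CPM in male thoraxes (2.95, SE 0.28, adjusted p = 2.3e-05). Cpr47Ea rose by 5.07 in females and 2.98 in males.

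Cpr92F was also called in both sexes, at 5.65 in females and 3.53 in males, but its libraries disagreed: the control male thorax values were 0.904, 0.724 and 10.96 CPM against 0.752, 0.893 and 0.408 CPM in whole males. Without control male thorax replicate 3 the male difference was 0.76 and not called (edgeR adjusted p = 0.14), and without whole control male replicate 3 it was 3.26 and not called (adjusted p = 0.057). In females it rested on 48 counts in thoraxes, of which 42 came from replicate 3, against 2 in whole bodies. The 4 genes lower in male thoraxes than in whole males were Cpr66Cb (-4.57), Cpr31A (-3.83), Cpr56F (-3.63) and Cpr50Ca (-2.37). Cpr31A was at 1.504, 1.49 and 1.63 CPM in whole control males and at 0, 0.198 and 0 CPM in their thoraxes. The mean of each of these 4 genes was at most 0.0765 CPM in whole control females, and within the control strain they were highest in whole males.

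The question of the study was how loss of the H2S-producing enzymes changes expression, and in whole females it came with more CPR RNA wherever Cbs was deleted. Of 24 CPR genes tested in whole females, 11 rose and 0 fell in CBS-/-(5) (15.2% of all genes called in either direction, 11.3% higher and 3.89% lower), 15 rose and 0 fell in CBS-/-(8) (24.6% called, 16.6% higher and 8% lower), 9 rose and 0 fell in DD1 (30.8% called, 16.6% higher and 14.2% lower) and 20 rose and 0 fell in DD2 (66.3% called, 34.4% higher and 31.8% lower). The median log2 fold change of the CPR genes was 1.58, 1.48, 0.79 and 1.76, against -0.01, 0.01, 0.03 and 0.02 for all genes. With Cpr49Ah, which had 0 counts in control females, set at its bound or left out, these medians were 1.57, 1.37, 0.79 and 1.74. A gene that passed the filter on low counts only through strains where it is high could hardly be called lower. The absence of falls and the medians are thus in part a description. Other low means in control females were those of Cpr49Ag (0.299 CPM) and Cpr62Ba (0.413 CPM). All 6 comparisons use the same 3 control female libraries.

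In females of CSE-/- 2 genes rose, Cpr72Ec and Cpr49Ah, and 0 fell (2.73% of all genes called, 1.65% higher), with a median of 0.50 against 0.00 for all genes. In MST-/- females 0 CPR genes were called by edgeR (0.891% of all genes called, 0.531% higher and 0.36% lower), 3 of 24 had an unadjusted p under 0.05, and DESeq2 called 1. Their median was 0.15 against 0.01 for all genes.

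The levels of tissue marker genes differed between the same strains. The summed level of 6 of the 7 listed flight muscle genes that were found was 527.3 CPM in control females (385.4 to 723.1), 715.8 CPM for MST-/- and 1008 CPM for CSE-/- (978.9 to 1052). It was 1316 CPM for CBS-/-(5) (783.9 to 2294), 1009 CPM for CBS-/-(8) (826.3 to 1131), 1106 CPM for DD1 and 1612 CPM for DD2 (1021 to 2403), with no marker at 0. CSE-/- and CBS-/-(8) had about the same flight muscle sum, but eye gene sums of 1485 and 2115 CPM and ovary germline sums of 2978 and 2479 CPM. That of 8 eye genes was 1057 CPM in control females (886.5 to 1285), 1400 CPM for MST-/- (1269 to 1478), 1485 CPM for CSE-/- (1404 to 1564), and 1876, 2115, 1747 and 2641 CPM in the 4 strains without Cbs, in the same order, and that of 8 ovary germline genes was 3025 CPM in the control and 2479, 2479, 2467 and 1889 CPM in those strains. Their part in the CPR result was not tested. With scaling on thorax genes the median of all genes in these strains moved to -0.50, -0.61, -0.52 and -0.97, and the CPR genes called higher became 6, 10, 6 and 10, with 0 lower in each. The genes of this scaling were chosen partly on the same control whole-body libraries and include CPR genes, so the loss of calls could be in part built in. The count in CBS-/-(5) also rested on single libraries: it was 1 with only the groups compared in the fit, 5 without its replicate 3, and 7 without control female replicate 1 or replicate 3. That in DD2 was 13 without DD2 female replicate 3.

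**Figure D3:**
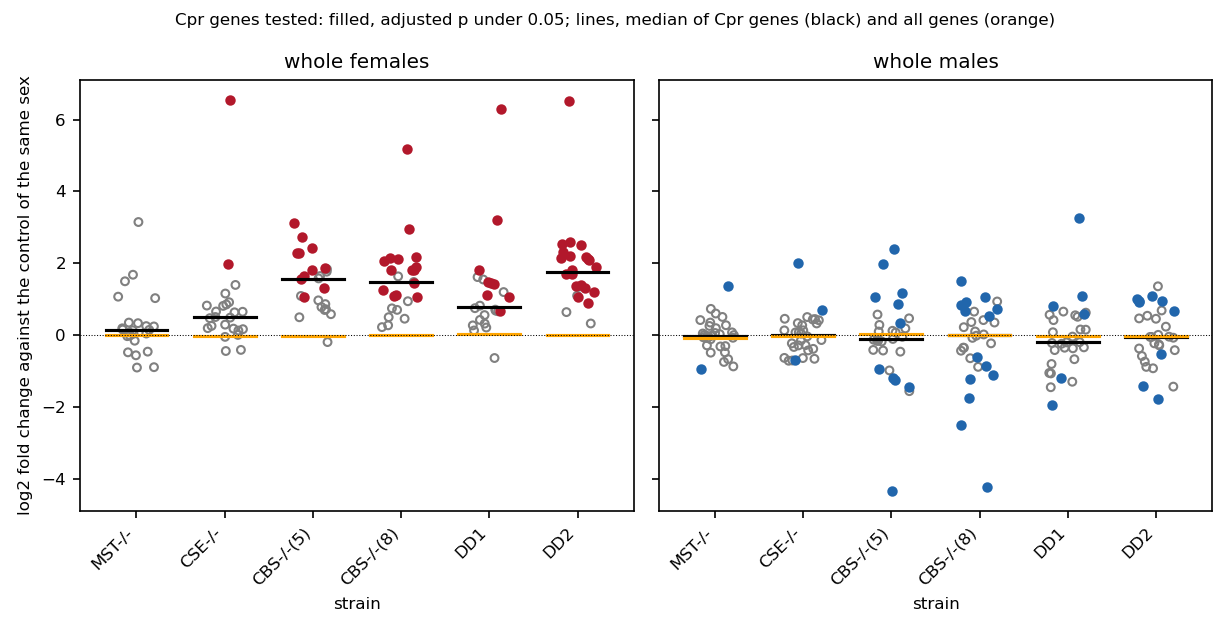
Log2 fold change of each CPR gene tested against the control of the same sex, in whole females (left) and whole males (right) of 6 strains. Filled points have an adjusted p under 0.05, black lines give the median of CPR genes and orange lines that of all genes. In females all filled points lie above 0, and those above 5 are Cpr49Ah, whose fitted value has no lower limit in counts because the control females gave 0. In males filled points lie on both sides.

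The lens gene Cpr72Ec (3L, 16365894 to 16367340, minus strand) was called higher than the control in both sexes of every strain but MST-/-. It stood at 1.01, 1.22 and 1.30 CPM in control females and at 9.18, 10.9 and 13.4 CPM in DD1 females, a rise of 3.20 on the log2 scale (SE 0.45, edgeR adjusted p = 9.3e-05). CBS-/-(5) females gave 4.07, 4.48 and 15.2 CPM (2.75, adjusted p = 0.00052), and CBS-/-(8) females 11.6, 6.36 and 9.84 CPM (2.97, adjusted p = 0.00013). Every library of these 3 strains lay above every control library, and 1 CBS-/-(5) library, replicate 3, was far above the others.

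In the remaining strains the female level of Cpr72Ec was in between. CSE-/- females gave 4.49, 4.03 and 6.14 CPM (1.99, adjusted p = 0.017, edgeR), a call that was lost when any control library or CSE-/- replicate 3 was left out (adjusted p from 0.051 to 0.093). DD2 females gave 3.24, 1.98 and 3.55 CPM (1.32, adjusted p = 0.017), which became 0.26 (adjusted p = 0.44) with scaling on thorax genes, and the call was lost without control female replicate 1 (1.22, adjusted p = 0.052) or DD2 female replicate 3 (1.13, adjusted p = 0.067). MST-/- females, at 3.49, 3.26 and 3.71 CPM, were above the control libraries but not called (1.504, adjusted p = 0.19).

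The level was highest in DD1 in males too. Cpr72Ec stood at 12.5, 11.3 and 9.39 CPM in control males and at 94.9, 106.0 and 122.1 CPM in DD1 males (log2 fold change 3.25, SE 0.32, edgeR adjusted p = 9.4e-07). CSE-/- males gave 45.3, 42.04 and 42.4 CPM (2.01, adjusted p = 0.00059) and CBS-/-(5) males 46.0, 40.0 and 36.4 CPM (1.97, adjusted p = 0.00023). In CBS-/-(8) males replicate 2 stood at 11.4 CPM, within the control range, and the other libraries at 37.7 and 42.1 CPM (1.502, adjusted p = 0.0016). DD2 males, at 15.9, 20.9 and 26.1 CPM, were just above the controls (0.96, adjusted p = 0.038), and this call was lost without any of the 3 control libraries or DD2 replicate 2 or 3 (adjusted p up to 0.14). MST-/- males gave 15.7, 21.4 and 17.6 CPM (0.74, adjusted p = 0.25).

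The other lens gene, Cpr66D, differed in fewer strains; its values are given because Cpr72Ec moved, a choice made after both were seen. It stood at 1.40, 1.01 and 1.45 CPM in control females and rose in CBS-/-(8) (1.12) and DD2 (1.41). In males it went from 3.93, 4.02 and 3.61 CPM to 7.19, 5.91 and 8.01 CPM in CBS-/-(8) (0.92, SE 0.25, edgeR adjusted p = 0.009) and 7.26, 7.70 and 8.71 CPM in DD2 (1.08, SE 0.25, adjusted p = 0.0049). DD1 males, in which Cpr72Ec was highest, had 6.36, 6.02 and 5.23 CPM of Cpr66D and were not called. The eye gene sum was 4835 CPM in control males (4381 to 5265), 5643 CPM in DD1 males (5095 to 6124) and 5654 CPM in DD2 males (5570 to 5759), and its part in the results for both lens genes was not tested.

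**Figure D4:**
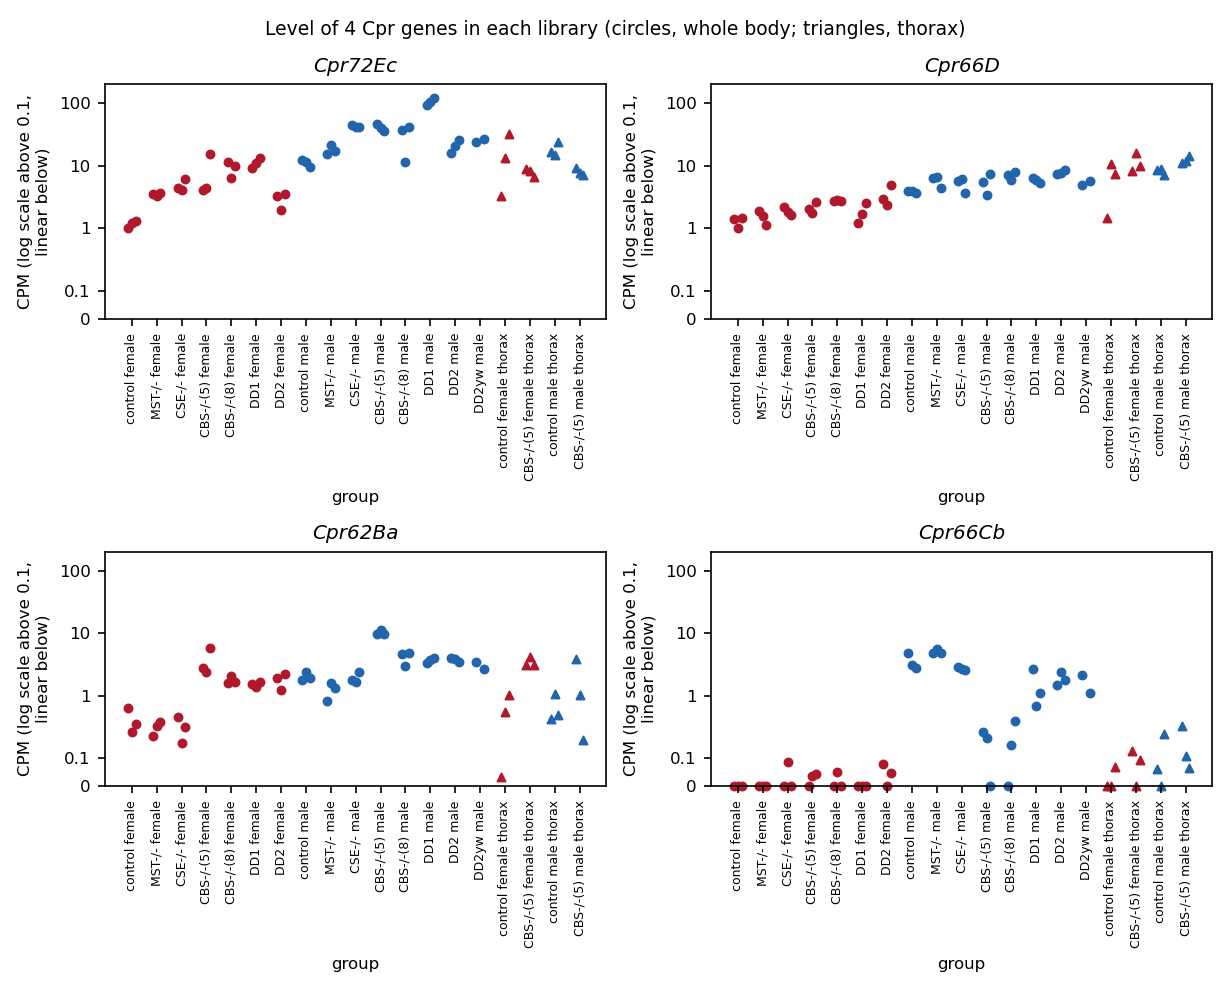
Level of Cpr72Ec, Cpr66D, Cpr62Ba and Cpr66Cb in every library (CPM, logarithmic above 0.1 and linear below), by group, with circles for whole bodies, triangles for thoraxes, red for females and blue for males. Cpr72Ec is highest in DD1 males (94.9 to 122.1 CPM), Cpr66D lies between 3.61 and 8.71 CPM in control, CBS-/-(8), DD1 and DD2 males, Cpr62Ba is highest in CBS-/-(5) males, and Cpr66Cb is near 0 in females and low in the CBS-/- males.

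The 3 genes of band 62B went separate ways. Cpr62Ba (3L, 1824129 to 1831783, minus strand) rose in every strain without Cbs and in both sexes. Its control female values of 0.626, 0.262 and 0.351 CPM became 2.79, 2.40 and 5.82 CPM in CBS-/-(5) females (log2 fold change 3.13, SE 0.42, edgeR adjusted p = 8.5e-05), and it rose by 2.08 in CBS-/-(8), 1.82 in DD1 and 2.12 in DD2 females. In males 1.75, 2.38 and 1.91 CPM became 9.64, 11.02 and 9.53 CPM in CBS-/-(5) (2.41, SE 0.23, adjusted p = 8.3e-07), 4.69, 2.95 and 4.78 CPM in CBS-/-(8) (1.08), 3.29, 3.70 and 3.97 CPM in DD1 (0.82) and 3.94, 3.89 and 3.47 CPM in DD2 (0.95). No whole-body library of these strains fell within the control range in either sex. The DD1 male call was lost without control male replicate 1 or 3 or DD1 replicate 2 or 3 (adjusted p from 0.067 to 0.093). In MST-/- and CSE-/- it was not called in either sex, with log2 fold changes between -0.66 and -0.03.

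Its neighbour Cpr62Bc moved the other way in males. It stood at 1.84, 1.86 and 1.84 CPM in control males and at 0.367, 0.322 and 0.231 CPM in CBS-/-(8) males (log2 fold change -2.48, SE 0.43, edgeR adjusted p = 0.00039). It fell by 1.42 in CBS-/-(5), by 1.92 in DD1 and by 1.75 in DD2 males, where 1 DD2 library stood at 1.03 CPM and the others at 0.155 and 0.385 CPM. The CBS-/-(5) call was lost without its replicate 1 (adjusted p = 0.059). The third gene, Cpr62Bb, was called in DD2 females only among these comparisons, at 6.09, 4.07 and 14.4 CPM against 2.41, 2.10 and 1.25 CPM (2.11, SE 0.59, adjusted p = 0.0054), and not without DD2 replicate 3 (1.38, adjusted p = 0.055).

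Among the genes at high level, Cpr49Ab rose in females of 3 strains. Its values of 53.2, 39.6 and 34.9 CPM in control females became 81.2, 112.2 and 95.04 CPM in DD1 (log2 fold change 1.14, SE 0.29, edgeR adjusted p = 0.0084) and 185.1, 77.3 and 183.6 CPM in DD2 (1.82, SE 0.29, adjusted p = 0.00013). In CBS-/-(8) it rose by 1.06, and the call was lost without control female replicate 3 (0.96). Cpr67B rose in all 4 strains, by 1.05, 1.11, 0.67 and 1.21 in CBS-/-(5), CBS-/-(8), DD1 and DD2, from 15.2, 19.2 and 12.8 CPM in the control to 37.2, 27.8 and 43.0 CPM in DD2. With scaling on thorax genes it was called in CBS-/-(8) alone of the 4, and its DD1 call was lost without control replicate 1 or 3 or DD1 replicate 3.

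Cpr49Ae and Cpr65Au were less even. Cpr49Ae went from 13.8, 11.3 and 9.37 CPM in control females to 45.9, 28.7 and 122.8 CPM in DD2 (log2 fold change 2.54, SE 0.49, edgeR adjusted p = 0.0005), and in CBS-/-(8) it rose by 1.47, a call lost when any of the 6 libraries was left out. Cpr65Au, the most abundant of all, was called higher in DD2 females only (0.89, adjusted p = 0.013), at 66.4, 37.6 and 90.1 CPM against 35.2, 37.2 and 33.3 CPM. It was not called without DD2 replicate 3 (0.55), and with scaling on thorax genes it stood at -0.21 (adjusted p = 0.29).

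Several genes near 1 CPM rose with larger fold changes. Cpr51A rose by 1.81 in CBS-/-(8), 1.47 in DD1 and 2.19 in DD2 females (SE 0.31 in each), from 1.40, 1.31 and 0.651 CPM to 6.25, 3.62 and 5.39 CPM in DD2. It was not called in CBS-/-(5), where it stood at 0.796, 0.939 and 1.25 CPM. Cpr97Eb rose by 2.12, 1.47 and 2.31 in the same 3 strains, and it was also called in CBS-/-(5), at 1.504, 1.81 and 1.85 CPM against 0.578, 0.656 and 0.200 CPM. Cpr100A rose by 2.28 in CBS-/-(5), 2.18 in CBS-/-(8) and 2.51 in DD2, whereas in DD1 it stood at 0.577, 0.265 and 0.718 CPM beside 0.626, 0.437 and 0.301 CPM in the control. Cpr49Ah gave 0 counts in control females, and it was at least 3.71-fold higher in CSE-/- (13, 11 and 11 counts), 1.36-fold in CBS-/-(8), 3.10-fold in DD1 and 3.43-fold in DD2, against 3 counts per library. It is named after its values were seen, since it stayed under 1 CPM in females.

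In whole males the family did not move in 1 direction. Of 30 CPR genes tested, 6 rose and 5 fell in CBS-/-(5), where 32.7% of all genes were called, 14.6% higher and 18.1% lower. In CBS-/-(8) 7 rose and 7 fell (32.3% of all genes, 12.8% higher and 19.6% lower), in DD1 4 rose and 2 fell (12.7%, 5.37% higher and 7.29% lower), and in DD2 6 rose and 3 fell (18%, 8.24% higher and 9.74% lower). In CSE-/- 2 rose and 1 fell (3.71%, 1.7% higher and 2% lower), and in MST-/- 1 rose and 1 fell (1.54%, 0.706% higher and 0.836% lower). The 36.7% of CPR genes called in CBS-/-(5) was near the share of all genes. The medians of CPR genes lay between -0.19 and 0.01, and those of all genes between -0.08 and 0.03. All 6 comparisons use the same 3 control male libraries. In an alternative chosen after seeing the data, female RNA was subtracted from the male libraries. It took the share from yolk and eggshell genes and the mean profile of females of the same strain. CSE-/- females held less Cth (7.24 to 7.78 CPM) than the males labelled CSE-/- (15.4 to 26.5 CPM). Subtracting the profile of females with Cth intact was not tested for these males. After the subtraction 7 CPR genes were called in CBS-/-(5), 8 in CBS-/-(8), 6 in DD1, 5 in DD2, 1 in CSE-/- and 0 in MST-/-. DESeq2 called 2 in MST-/- without the subtraction. Without CBS-/-(8) replicate 2 there were 8 in CBS-/-(8), without control male replicate 2 there were 5 in DD2, and without DD1 replicate 2 there were 3 in DD1.

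Cpr66Cb (3L, 8336672 to 8338595, plus strand), the gene that was at 0 counts in control females, had the largest fall in males that lack Cbs but not Cth. Against 4.85, 3.13 and 2.79 CPM in control males it stood at 0.264, 0.209 and 0 CPM in CBS-/-(5) (log2 fold change -4.32, SE 0.61, edgeR adjusted p = 7.8e-05) and at 0, 0.161 and 0.385 CPM in CBS-/-(8) (-4.20, SE 0.60, adjusted p = 5.3e-05). All 6 libraries lay far below the controls, at 0.385 CPM or less. In the strains that lack Cth as well the level was intermediate: DD1 males gave 2.71, 0.684 and 1.12 CPM (-1.29, adjusted p = 0.064) and DD2 males 1.47, 2.38 and 1.77 CPM (-0.87, adjusted p = 0.17). The summed level of 10 testis genes in the same libraries was 1905 CPM in control males, 968.8 CPM for CBS-/-(5), 909.2 CPM for CBS-/-(8), 1593 CPM for DD1 and 1189 CPM for DD2, and its part in the result was not tested.

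Cpr47Ef fell in males of 4 strains. From 28.7, 33.5 and 39.2 CPM in control males it went to 11.5, 14.8 and 10.5 CPM in DD2 (log2 fold change -1.41, SE 0.18, edgeR adjusted p = 2.5e-05) and to 16.02, 14.3 and 15.6 CPM in DD1 (-1.18, SE 0.18, adjusted p = 0.00016). It also fell by 0.92 in MST-/-, a call lost without control male replicate 3 or MST-/- replicate 2 (adjusted p = 0.055 and 0.14), and by 0.69 in CSE-/-, a call lost without control male replicate 2 or 3 or CSE-/- replicate 1 or 2 (adjusted p from 0.091 to 0.2). Both were lost after the subtraction of female RNA. In both CBS-/- strains it was not called. In females it rose, by 1.57 in CBS-/-(5) and 1.37 in DD2, where the libraries overlapped the controls. The first call was lost without control female replicate 1 or 3 or CBS-/-(5) replicate 3 (0.77), and the second without control female replicate 3 or DD2 replicate 3 (0.71).

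Other male changes were smaller or held in 1 strain. Cpr76Bc fell in CBS-/-(8) from 6.77, 6.48 and 4.76 CPM to 1.83, 1.45 and 1.93 CPM (log2 fold change -1.73, SE 0.25, edgeR adjusted p = 6.5e-05). Cpr49Ab rose by 1.06 in CBS-/-(5), where the libraries at 149.7, 216.6 and 99.7 CPM overlapped the controls at 61.7, 69.7 and 105.0 CPM, and Cpr49Ag rose by 1.36 in MST-/-, 1.18 in CBS-/-(5) and 1.10 in DD1. Cpr51A rose by 0.70 in CSE-/-, 0.61 in DD1 and 0.68 in DD2. The calls of Cpr49Ag in MST-/- and DD1 and of Cpr51A in CSE-/-, DD1 and DD2 were each lost without any 1 of at least 3 of their 6 libraries (adjusted p up to 0.19).

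DD1 was next compared with CBS-/-(5), and DD2 with CBS-/-(8). The strains of each pair differ by the loss of Cth and by the crosses that made the double deletion. In females 2 CPR genes were higher and 1 lower in DD1 (3.72% of all genes called, 2.26% higher and 1.46% lower), and 0 were higher and 1 lower in DD2 (5.41%, 3.08% higher and 2.33% lower). Cpr51A was higher in DD1, at 2.84, 2.72 and 4.01 CPM against 0.796, 0.939 and 1.25 CPM (log2 fold change 1.65, SE 0.31, edgeR adjusted p = 0.0044), and Cpr100A was lower (-2.14, adjusted p = 0.031), a call lost without any DD1 library or CBS-/-(5) replicate 3. Cpr49Ah, with 31 counts in DD1 and 1 in CBS-/-(5), was the other gene called higher and is named after its values were seen. With only these groups in the fit, 0 genes were called. In DD2 Cpr72Ec was lower than in CBS-/-(8) (-1.65, SE 0.41, adjusted p = 0.0255), but leaving out DD2 replicate 1 or 3 or CBS-/-(8) replicate 1 or 3 ended this call, and without DD2 replicate 2 there were 8 genes called.

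In males 7 CPR genes were higher and 5 lower in DD1 than in CBS-/-(5) (36.1% of all genes called, 16.3% higher and 19.8% lower), and 3 were higher and 1 lower in DD2 than in CBS-/-(8) (9.1%, 4.83% higher and 4.27% lower). Cpr66Cb was higher in both, by 3.04 (SE 0.66, edgeR adjusted p = 0.0039) and 3.33 (SE 0.63, adjusted p = 0.0031), and Cpr47Ef lower in both (log2 fold changes -1.01 and -0.98). Cpr72Ec was higher in DD1 by 1.28 (SE 0.29, adjusted p = 0.0049), and after the subtraction of female RNA by 0.78 (adjusted p = 0.23). Cpr62Ba was lower in DD1 (log2 fold change -1.58, SE 0.21, adjusted p = 8e-05). The count in DD1 was 6 without DD1 replicate 1, 7 after the subtraction and 3 with only these groups in the fit.

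The effect of a strain on CPR genes was next compared between the sexes. In a fit of both sexes the female effect exceeded the male effect for 8 of 35 CPR genes in CBS-/-(5) (13.6% of all genes called, 8.02% higher), 7 in CBS-/-(8) (17.8%, 9.75% higher), 7 in DD1 (21.5%, 19% higher) and 16 in DD2 (31.3%, 19.8% higher), and 0 went the other way in these 4 strains. The shares of CPR genes called in CBS-/-(8) and DD1 were near those of all genes. Only 24 CPR genes passed the filter on low counts in whole females alone. A gene near 0 in control females could hardly fall there, so the direction of these counts is in part a description. Female RNA in the male libraries was not subtracted in this fit, and its part was not tested. In MST-/- and CSE-/- edgeR called 0 and DESeq2 0, with 2 and 1 genes at an unadjusted p under 0.05 (0.214% and 0.813% of all genes called by edgeR). The female effect of Cpr47Ef exceeded the male one by 1.66 in CBS-/-(5), 2.03 in DD1 and 2.69 in DD2 (SE 0.48 in each), and that of Cpr67B by 0.67 to 1.21 in all 4 strains. With scaling on thorax genes the counts were 1, 3, 1 and 7. In CBS-/-(5) the count ran from 1 without CBS-/-(5) female replicate 3 to 14 without its replicate 2, and was 2 to 5 without control female replicate 1 or 3, control male replicate 1 or CBS-/-(5) male replicate 2. It was 11 in CBS-/-(8) without CBS-/-(8) male replicate 3, 10 in DD2 without DD2 female replicate 3, and 2 to 4 in DD1 without control female replicate 3, any control male library, DD1 female replicate 2 or DD1 male replicate 1 or 2.

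In thoraxes the loss of Cbs did little that could be called. In CBS-/-(5) female thoraxes 0 of 23 CPR genes were called by edgeR (0% of all genes called) and 0 by DESeq2, with 4 CPR genes and 597 genes in all at an unadjusted p under 0.05. Without control female thorax replicate 3 there was 1. In male thoraxes 1 of 24 was lower and 0 higher (1.85% of all genes called, 1.08% lower). This was Cpr51A, at 2.89, 2.40 and 1.85 CPM in CBS-/-(5) against 9.64, 10.6 and 5.24 CPM in the control, with no overlap (log2 fold change -1.96, SE 0.22, adjusted p = 0.017). DESeq2 called 4 CPR genes, all lower, and edgeR with a replicate block 0. When any library but control replicate 3 was left out 0 CPR genes were called, and without control replicate 3 there were 2.

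Cpr72Ec was the 1 CPR gene whose CBS-/-(5) effect differed between thorax and whole body by edgeR, in males, where DESeq2 called 3 (1 higher and 2 lower) and edgeR with a replicate block 0. In male thoraxes it stood at 9.21, 7.59 and 7.01 CPM against 16.6, 14.9 and 24.4 CPM in the control, below every control library but not called (log2 fold change -1.51, SE 0.40, edgeR adjusted p = 0.18), while in whole males it rose by 1.97. The difference of the effects was -3.33 (SE 0.47, adjusted p = 0.027), with 0.123% of all genes called, 0.0385% lower, in that comparison, and it was called in the fits without 1 control thorax library but in none of those without 1 of the 9 other libraries (adjusted p from 0.063 to 0.11). In females the same difference was -4.45 and not called (adjusted p = 0.2), where 0 of 27 CPR genes were called by edgeR and 1 by DESeq2, 8 had an unadjusted p under 0.05, and 0.00929% of all genes were called.

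The libraries labelled DD2yw had the highest group mean of the summed CPR level, 1574 CPM, although not of each gene: Cpr65Au was highest in control male thoraxes (387.8 against 211.1 CPM) and Cpr49Ab in CBS-/-(5) female thoraxes (337.4 against 138.5 CPM). Against DD2 males, 17 of 34 CPR genes tested were higher and 0 lower (21.1% of all genes called, 10.9% higher), with a median log2 fold change of 1.03 against 0.01 for all genes. Without these libraries 30 CPR genes passed the filter on low counts in whole males, and a gene that passed only through them, such as Cpr97Ea or Cpr49Ah, had to be higher there, so the count and the median are a description. The comparison rests on 2 libraries that differed from each other, with Cpr49Ah at 8.75 and 0.777 CPM, and on a label that the levels of Cbs and Cth go against. The same libraries had 8699 CPM of flight muscle genes (8059 and 9340), against 3630 CPM in DD2 males (3445 to 3808), and 4293 CPM of eye genes against 5654, and the part of tissue content in the result was not tested.

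Cpr92F (3R, 20669571 to 20672821, plus strand) went from 0.232, 0.476 and 0.771 CPM in DD2 males to 257.8 and 89.3 CPM in the libraries labelled DD2yw (log2 fold change 8.57, SE 0.47, edgeR adjusted p = 1.9e-10). In the 18 other groups its mean was 1.06 CPM. Cpr49Ae, at 45.2, 52.7 and 42.8 CPM in DD2 males, stood at 753.3 and 369.9 CPM (3.71, SE 0.24, adjusted p = 2.8e-09) and made up 35.7% of the summed CPR level. Cpr97Ea had 364 counts against 1, a ratio of 519 with a counting interval of 92.5 to 20540, and Cpr49Ah 134 against 1, a ratio of 191 (33.7 to 7596).

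Cpr62Bc, which was low in the males without Cbs, stood at 55.3 and 12.7 CPM against 0.155, 1.03 and 0.385 CPM (6.14, SE 0.53, adjusted p = 9.8e-08). Cpr100A rose by 3.75, to 103.8 and 39.8 CPM, and Cpr47Ef by 2.27, to 48.6 and 60.6 CPM. Cpr65Au rose by 1.15 and Cpr67B by 0.44, the latter from 45.4, 56.6 and 55.0 CPM to 65.3 and 65.7 CPM. The call of Cpr67B was lost when DD2 replicate 1 or either library labelled DD2yw was left out. Cpr72Ec, at 24.4 and 27.1 CPM, overlapped DD2 males and was not called (0.42, adjusted p = 0.38).

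**Figure D5:**
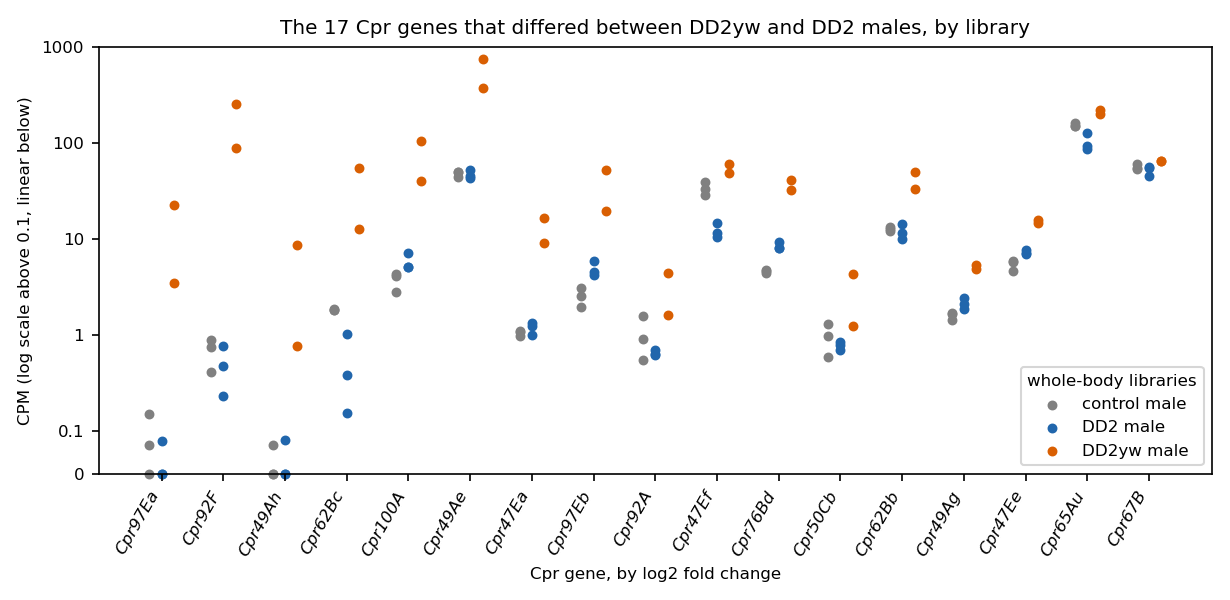
Level of the 17 CPR genes that were higher in the libraries labelled DD2yw than in DD2 males, in each library of control males (grey), DD2 males (blue) and DD2yw (orange), in CPM on an axis that is logarithmic above 0.1 and linear below. Genes are ordered by log2 fold change. Cpr97Ea, Cpr92F and Cpr49Ah at the left are near 0 in control and DD2 males, and the distance narrows towards Cpr65Au and Cpr67B at the right.

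Other cuticle genes were read in the same comparisons. Of 28 further genes with the Rebers and Riddiford consensus (Lcp, Ccp84, Edg, Acp65Aa, Pcp, resilin and Crys), only 5 were tested in whole females, and of these 4 rose in DD2 (median log2 fold change 1.69), 2 in DD1 (0.62) and 0 in CBS-/-(5) (0.75) and CBS-/-(8) (0.31), beside medians of all genes from -0.01 to 0.03. The share of all genes called in either direction was 66.3% in DD2, 30.8% in DD1, 24.6% in CBS-/-(8) and 15.2% in CBS-/-(5) females, against which the following counts are to be read. The lens protein gene Crys was one of them, at 9.55 CPM in DD2 and 7.27 CPM in DD1 against 2.86 CPM in control females (log2 fold changes 1.75 and 1.30). Of 17 chitin genes, 10 rose and 1 fell in DD2 females, 6 and 1 in CBS-/-(5), 5 and 2 in CBS-/-(8), and 2 and 1 in DD1, with a median of 1.22 in DD2, where the share called was near that of all genes. Among the chitin genes the deacetylase serp rose by 2.24 in DD2 (SE 0.38, edgeR adjusted p = 0.00022), from 2.80 to 13.1 CPM, and Gasp, a chitin-binding protein of the tracheal lining, rose by 1.75, from 4.94 to 16.45 CPM. Of 7 tanning genes, 6 rose in DD2 females (median 1.37) and 2 each in CBS-/-(5), CBS-/-(8) and DD1, with 0 lower. In DD2 the tyrosine hydroxylase gene ple rose by 1.70, from 14.3 to 45.6 CPM, and b (black), which makes beta-alanine for tanning, by 1.37, from 20.3 to 52.1 CPM. Of 11 ecdysone and moulting regulators, 4 rose and 4 fell in DD2 females, 3 and 2 in both CBS-/-(8) and DD1, and 3 and 1 in CBS-/-(5). Of 3 Tweedle cuticle genes, 1 rose in DD2 females and 0 were called in the other strains.

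In the libraries labelled DD2yw, 8 of 17 chitin genes were higher and 1 lower than in DD2 males, with a median of 0.84. The adult cuticle protein gene Acp65Aa stood at 125 CPM against 0.442 CPM (log2 fold change 8.25), beside 8.57 for Cpr92F. The chitin deacetylase gene verm rose by 2.39, from 14.47 to 69.6 CPM, and ple by 1.69. Of 11 ecdysone and moulting regulators, 0 were higher and 2 lower, near the 21.1% of all genes called.

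In whole males these lists held both falls and rises. In the strains without Cbs all genes too were called lower more often than higher, with 18.1% against 14.6% in CBS-/-(5). Of 5 Tweedle genes, 0 rose and 4 fell in CBS-/-(5) (32.7% of all genes called), 2 fell in CBS-/-(8) (32.3%), and 1, TwdlT, fell in each of CSE-/-, DD1 and DD2. TwdlT, a cuticle protein gene of the Tweedle family, stood at 1.64 CPM in DD2 and 1.78 CPM in DD1 against 6.19 CPM in control males (log2 fold changes -1.86 and -1.82). Of 6 tanning genes 2 fell and 0 rose in both CBS-/- strains, among them Ddc, the dopa decarboxylase gene (-0.69 and -0.71). Of 17 chitin genes 0 rose and 4 fell in CBS-/-(5), including the chitin synthase gene kkv (log2 fold change -0.996). In CBS-/-(8) 4 rose and 3 fell, in DD2 3 and 3, in DD1 1 and 3, and in CSE-/- 0 and 2. The shares of tanning genes called in both CBS-/- strains and of chitin genes in CBS-/-(5) were near or below those of all genes. Of 5 further genes with the Rebers and Riddiford consensus, 1 rose and 0 fell in each of CSE-/-, DD1 and DD2, and 0 rose and 1 fell in CBS-/-(5).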

How the data were processed

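Poly(A) RNA of 57 libraries was sequenced as single-end reads from a directional kit. Per the submitters' processing notes, FastQC, Trimmomatic 0.38, STAR 2.5.0a and featureCounts 1.5.0-p1 were used on build dm6. The deposited files hold raw counts of reads per gene, which the authors made without normalization, and the strand setting of the counting is not given in the sources used here, so that reads of a gene and of an antisense partner cannot be told apart. Of 17559 identifiers, 17253 were matched to a FlyBase symbol and position in the Ensembl annotation. Reads assigned to no gene were left out of totals.

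CPM was computed on the total over genes, and 1 library with 7321 counts was left out. Totals of the others were 9705034 to 31616200 counts. Tests were run in R 4.3.3 with edgeR 4.0.16 (quasi-likelihood, TMM, filterByExpr with a minimum count of 10 and total of 15), adjusted over all genes (Benjamini-Hochberg), and called at an adjusted p under 0.05. Females, males, both sexes, and thorax with whole body were fitted together as each comparison needs. Every adjusted p in the text is from edgeR unless DESeq2 (1.42.0) is named. The tests were checked on simulated counts. No 2 libraries of a group held the same counts. Log2 fold changes are first group minus second, with low genes shrunk by edgeR's prior count. The SE is not an output of edgeR: it is the absolute log2 fold change divided by the square root of the F statistic.

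The alternatives were DESeq2, TMM on thorax genes (7170 in females, 4107 in males), no filter, only the groups compared, a replicate block, keeping the library of 7321 counts, leaving out each library and, chosen after seeing the data, leaving out ribosomal RNA genes and subtracting the female RNA of male libraries. For fits of both sexes the thorax genes were those common to the female and male sets. The genes of the family, the other gene lists and the tests were chosen with earlier results of these data known. Named with full statistics were, per comparison, up to 4 called genes that rose most and 4 that fell most, provided the higher group reached 1 CPM, and the 10 genes of highest mean level. Of other cuticle lists at most 3 called genes of highest level were named. Of the listed markers and cuticle genes, 7 symbols were not matched and were not used here. Sequences of the genes were not used here.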

Additional observations from a re-analysis of the deposited data

Results flagged for a closer look

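The effect of a strain on CPR genes differed between the sexes by a test of the difference itself, in an edgeR fit of both sexes in which the female effect was set against the male effect. Of 35 genes tested, CBS-/-(5) had 8 such genes (13.6% of all genes called), CBS-/-(8) and DD1 had 7 each (17.8% and 21.5%), and DD2 had 16 (31.3%). With scaling on thorax genes the counts were 1, 3, 1 and 7. The control libraries are shared by these comparisons.

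In CBS-/-(5) the female effect exceeded the male one by 3.32 on the log2 scale for Cpr56F, 1.975 for Cpr76Bc, 1.66 for Cpr47Ef and 2.05 for Cpr100A. In CBS-/-(8) the difference was 2.945 for Cpr50Cb, 1.39 for Cpr51A, 2.40 for Cpr76Bc and 2.43 for Cpr56F. In DD1 it was 2.03 for Cpr47Ef, 2.46 for Cpr50Cb, 1.22 for Cpr73D and 1.54 for Cpr49Ae. In DD2 it was 2.69 for Cpr47Ef, 2.47 for Cpr76Bc, 2.77 for Cpr50Cb and 4.74 for Cpr92F. Cpr56F, Cpr76Bc and Cpr92F were at most at 0.200 CPM in every control female library, so that they could hardly fall in females.

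The effect of CBS-/-(5) differed between thorax and whole body for 1 gene in males, Cpr72Ec (-3.33 on the log2 scale). With 3 libraries in each group, single libraries far from the others were not tested for.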

How the results depend on the processing

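The counts of called CPR genes moved by more than 1.5 times under these settings, and the cause was not tested. DESeq2 called 1 gene in MST-/- females (0 by edgeR), 4 in CBS-/-(5) male thoraxes (1), 3 between the sexes in thorax (1), and 1 and 3 for the thorax minus whole-body effect in females and males (0 and 1). With scaling on thorax genes there were 2 in MST-/- females (0), 6 in CBS-/-(5) females (11), 10 in DD2 females (20), 2 for DD2 against CBS-/-(8) in females (1), and 8 whose effect differed between the sexes in at least 1 strain (18). With only the groups compared there were 1 in MST-/- females (0), 1 in CBS-/-(5) females (11), 6 in CSE-/- males (3), 6 in CBS-/-(5) males (11), 12 in DD1 males (6), 0 for DD1 against CBS-/-(5) in females (3) and 3 in males (12), 2 for DD2 against CBS-/-(8) in males (4), and 0 between the sexes in thorax (1). Without a filter there were 2 for DD2 against CBS-/-(8) in females (1). Strain by strain, the effect differed between the sexes for 4 genes in CBS-/-(5) without a filter (8) and for 12 in CBS-/-(8) with DESeq2 (7). With female RNA subtracted there were 0 in MST-/- males (2), 1 in CSE-/- (3), 7 in CBS-/-(5) (11), 8 in CBS-/-(8) (14), 5 in DD2 (9), and 7 for DD1 against CBS-/-(5) (12). Cpr65Au in DD2 females turned to -0.21 and Cpr49Ab between the sexes to 0.74 with scaling on thorax genes. That scaling was not run for thorax against whole body, since its genes were chosen on that contrast. In comparisons with whole-body controls its genes were chosen partly on the libraries compared, and they include CPR genes, so a loss of calls could be in part built in. At least 5 CPM was reached by 25 genes and 1 CPM in every library of a group by 29 (31 by the group mean).

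Leaving out 1 library at a time gave 0 to 0 in MST-/- females, 1 to 2 in CSE-/-, 5 to 16 in CBS-/-(5), 10 to 11 in CBS-/-(8), 6 to 9 in DD1 and 13 to 22 in DD2 females. In males it gave 0 to 2 in MST-/-, 1 to 2 in CSE-/-, 9 to 11 in CBS-/-(5), 8 to 13 in CBS-/-(8), 3 to 7 in DD1 and 5 to 8 in DD2, and 15 to 19 for the libraries labelled DD2yw. It gave 0 to 1 in female and 0 to 2 in male thoraxes, 2 to 4 and 6 to 16 for DD1 against CBS-/-(5) in females and males, 0 to 8 and 3 to 5 for DD2 against CBS-/-(8), 32 to 33 between the sexes in whole bodies and 1 to 3 in thorax, 24 to 26 and 22 to 25 for thorax against whole body, 0 and 0 to 1 for the thorax minus whole-body effect, and 13 to 23 for an effect that differed between the sexes. The 178 named gene results were each refitted without 1 library at a time. The call was lost in 228 of these refits and kept in the same direction in 1916. For differences between the sexes the refits include those without a library of a strain that was not compared.

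The same replicate numbers do not pair the libraries: deviations of same-numbered libraries from their group means correlated at 0.01 on average in whole females and -0.03 in whole males. In thoraxes they correlated at 0.16 on average in females and 0.09 in males, with the lowest pair at -0.18 and -0.09, so that not every pair was above 0.1. With the replicate block 1 gene was called in CSE-/- males (3), 0 in CBS-/-(5) male thoraxes (1) and 0 for the thorax minus whole-body effect in males (1).

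Genes with few counts set the limit of depth: 32 of 70 CPR genes could not be tested.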
